A study of Mus musculus with 31 samples.

Results

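Splicing factors and RNA helicases were represented by 111 of the 20794 rows of the array table. These were all rows whose gene symbol began with Srsf or Sfrs (SR proteins), Hnrnp or Hnrp (hnRNP proteins), Sf3a or Sf3b (the SF3 complexes), Snrp (proteins of the spliceosomal snRNPs), U2af, Prpf (factors named after yeast pre-mRNA processing genes) or Ddx (DEAD-box helicases), and they named 72 genes. By family there were 11 rows of 8 SR genes, 21 rows of 13 hnRNP genes, 11 rows of 6 SF3 genes, 12 rows of 8 snRNP genes, 2 rows of 2 U2AF genes, 18 rows of 10 Prpf genes and 36 rows of 25 Ddx genes. The Ddx genes are called DEAD-box helicases here by their prefix alone, and they include the DNA helicase Ddx11. Of the 72 genes, 27 had several rows, and these are numbered here in table order (Ddx5 row 1, row 2 and row 3). The rows were picked by symbol and not by their values, but the families were chosen with earlier results of these data known.

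Messenger RNA precursors are spliced by the spliceosome, in which small nuclear RNAs and their proteins recognise the splice sites and the intron branch point and catalyse the removal of introns. The core Sm proteins (Snrpb, Snrpd1, Snrpd3 and others) form rings on the snRNAs, the SF3a and SF3b complexes belong to the U2 snRNP, and U2af binds the end of the intron. SR proteins mostly favour the use of nearby exons and hnRNP proteins often oppose them, so that their balance shapes alternative splicing. DEAD-box helicases rearrange RNA and RNA-protein complexes with energy from ATP in splicing, ribosome assembly, translation and mRNA decay.

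RNA of brain, liver, spleen and thymus was taken from 4 male mice heterozygous for a mutant Dll1 allele at 17 weeks of age and hybridised on 31 dual-colour cDNA arrays, each time against 1 pooled wild-type sample for that organ, made from male mice aged 18 weeks (the sources differ on how many mice were pooled). Dll1 encodes a ligand of the Notch receptors. Per the study's methods the allele is Dll1tm1Gos, a lacZ insertion that disrupts Dll1 in every cell that would use it, on the C3HeB/FeJ background, and the heterozygous mice keep 1 wild-type copy. Each mouse and organ had 2 arrays with the dyes exchanged, except the thymus of mouse 2, which had 1 array, with the mutant sample in Cy5. Its values were moved by the dye bias seen in the thymi of the other mice (0.5 times the mean difference between their arrays). The same pool served all mutant mice of an organ, so the spread between wild-type mice was not measured, and the p-values below measure the spread between 4 mutant mice around that pool. The values are log2 ratios to a pool of the same organ, so neither the level of a gene nor the identity of the tissue could be checked.

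Values are given as mutant over pool: a ratio below 0 is a lower signal in the mutant mice. The sources do not settle this direction. It was taken from the labels, which list the mutant RNA first on each array, and the pool-over-mutant reading would turn every sign. Another possible reading, Cy5 over Cy3 on every array, is set beside the results below. The names of the rows are also inferred, by a shift of 11 rows between the value table and the probe list. With names taken at the row numbers as listed, the rows under these symbols had medians of 0.096 in brain and 0.038 in spleen, so the brain and spleen results below rest on the shift. Between rows of the same member gene the median Pearson correlation over the 16 mouse and organ values was 0.246 (52 pairs), and between rows of different member genes it was 0.106 (5592 pairs). These values share arrays, and both correlations are descriptions. The rows named Ddx21 row 3, Ddx6 row 3, Ddx6 row 4, Hnrnpm row 2 and Snrpb row 2 lie in the last stretch of the table, where the names are less certain. cDNA probes can also bind transcripts of close relatives, such as Ddx5 and Ddx17 or Hnrnpa1 and its pseudogenes, and such rows are uncertain as to gene.

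Arrays held between 12693 and 20649 values of 20794 spots. The arrays of spleen mouse 1 stood apart, with 39% and 26.2% of values missing and a median of 0.708 on the one with mutant Cy5 label, and brain mouse 4 lacked 22.3% of values on its Cy5 array. Dll1 itself was represented by 2 rows that disagreed in sign in brain and spleen (0.15 and -0.36 in brain, 0.66 and -0.57 in spleen, -0.85 and -0.09 in thymus, and -0.38 for the row measured in 3 livers). The limma adjusted p was from 0.443 to 0.938, and since it is not known whether the probes cover the disrupted part, these values check nothing about the labels.

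In brain and spleen most of the splicing and helicase rows lay below the wild-type pool, and in liver and thymus they were centred on it. The median log2 ratio of the members was -0.199 in brain (107 rows tested) and -0.2 in spleen (106 rows), against 0.036 and 0.086 over all tested rows of these organs, and it was -0.009 in liver (107 rows) and 0.012 in thymus (108 rows), against 0.016 and -0.007. In brain 74 of 107 member rows (69.2%) were below 0, compared with 46.6% of all 19102 rows tested. In spleen 77 of 106 (72.6%) were below 0, compared with 40.7% of 19591 rows. In liver 54 of 107 and in thymus 50 of 108 were below 0, shares of 50.5% and 46.3% beside 47.0% and 51.3% of all rows.

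No single member passed the test in any organ. At an adjusted p under 0.05 (limma on the means of each mouse, Benjamini-Hochberg adjustment over all rows with at least 3 mice) 0% of all rows were called in brain, liver, spleen or thymus, and the smallest adjusted p of a member was 0.42, 0.921, 0.414 and 0.86 in these organs. At an unadjusted p under 0.05, 23 member rows were lower and 2 higher in spleen, where 5.1% and 5.57% of all rows were. In brain 8 were lower and 3 higher, beside 4.44% and 7.25% of all rows. In liver 1 was lower and 2 higher (all rows 1.79% and 2.7%), and in thymus 2 were lower and 2 higher (2.44% and 0.684%). The 23 spleen rows are 21.7% of the members tested there and the 8 brain rows 7.48%.

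The 4 mice of an organ pointed the same way most often in brain and spleen. In brain 33 of 107 member rows (30.8%) were below 0 in 4 of 4 mice and 3 were above 0 in all 4, whereas 12.8% and 7.73% of all rows did so. In spleen 30 of 106 (28.3%) were below 0 in all 4 and 3 above, against 6.44% and 5.73% of all rows. In liver 3 member rows were below and 7 above in all 4 mice (all rows 5.06% and 6.66%), and in thymus 3 below and 5 above (6.25% and 5.56%). The member rows with values in all 4 mice were 91 in brain, 101 in liver, 64 in spleen and 105 in thymus. Rows with 3 mice stay in these shares, of members and of all rows, although they could not meet the condition.

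The median of the members was below that of all rows in each of the 4 mice in brain and in spleen. In brain it was -0.176, -0.254, -0.149 and -0.094 in mice 1 to 4, while the median of all rows lay between -0.021 and 0.042. In spleen it was -0.35, -0.19, -0.188 and -0.406, with all rows at 0.297 in mouse 1 and between 0.017 and 0.045 in the others. In liver the 4 medians lay between -0.034 and 0.096, and in thymus they ranged from -0.258 in mouse 1 to 0.176 in mouse 4. Without spleen mouse 1 the spleen median was -0.223 and 79 of 103 members (76.7%) were below 0, against 44.3% of all 19194 rows, with 22 lower and 3 higher at an unadjusted p under 0.05 (21.4% and 2.91% of members, 6.62% and 6.57% of all rows). Without brain mouse 4 the brain median was -0.233 and 78 of 104 (75%) were below 0, against 49.8% of all 17408 rows, with 10 lower and 4 higher (9.62% and 3.85% of members, 4.22% and 6.43% of all rows).

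**Figure D1:**
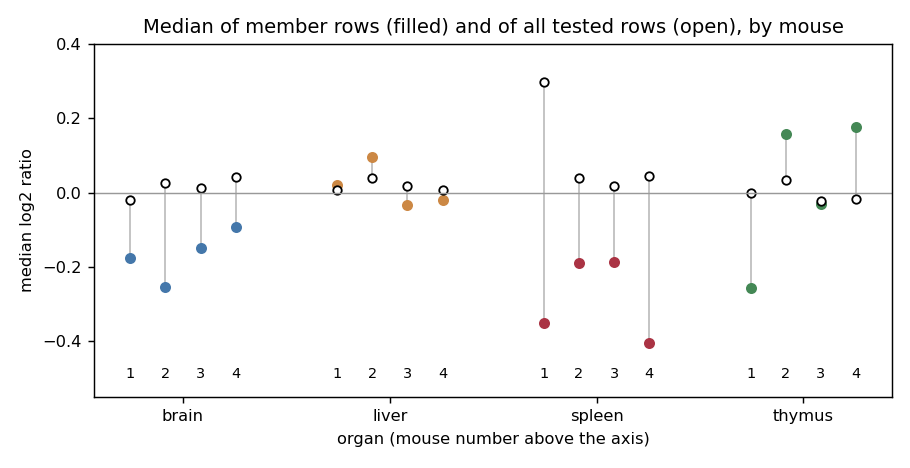
Median log2 ratio (mutant over wild-type pool) of the member rows (filled) and of all tested rows (open) in each of mice 1 to 4 of each organ. In brain and spleen every filled point lies below its open point, from -0.094 to -0.406, while in liver and thymus filled points lie on either side.

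The lower ratios rested mainly on one of the dye orientations. Where Cy3 marked the mutant sample, the member median was -0.356 in brain and -0.325 in spleen (all rows 0.073 and 0.077), and where Cy5 did, it was 0.055 and 0.038 (all rows 0.064 and 0.122). In liver the medians were -0.051 and 0.022, and in thymus -0.065 and 0, in the same order. Across the member rows, the ratios of the orientations had a Pearson correlation of -0.07 in brain, -0.23 in liver, 0.23 in spleen and 0.04 in thymus (107 to 109 rows, rows not being independent replicates), and over all rows it was -0.17, -0.26, 0.02 and 0.03. If the values are Cy5 over Cy3 on every array, most members lay above 0 in brain and spleen, and the medians were 0.244 in brain, 0.036 in liver, 0.171 in spleen and 0.06 in thymus. Under that reading 25 members were higher at an unadjusted p under 0.05 in brain, 15 in liver, 9 in spleen and 3 in thymus, beside 11.5%, 8.34%, 5.05% and 2.3% of all rows, and none had an adjusted p under 0.05 (smallest 0.173, by limma). The part of the dyes in the results below was not tested beyond the values given for each orientation.

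**Figure D2:**
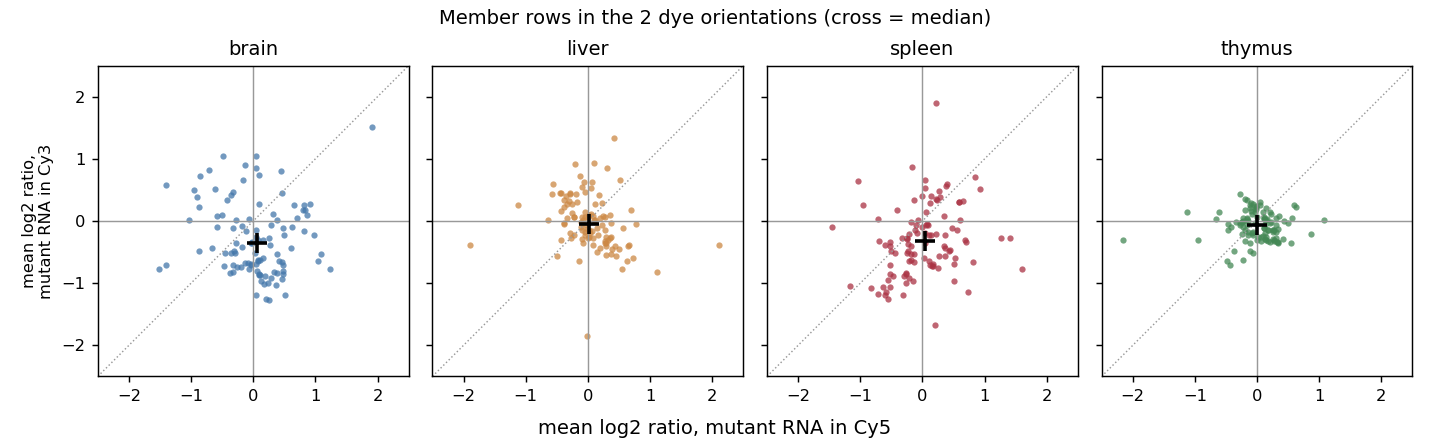
Mean log2 ratio of each member row when Cy5 (horizontal) or Cy3 (vertical) marked the mutant sample, by organ, with a cross at the medians. In brain and spleen the cross lies near 0 on the horizontal axis and at -0.356 and -0.325 on the vertical axis.

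By family, the SR proteins had the lowest median in brain (-0.42, 8 of 11 rows below 0) and the hnRNP proteins in spleen (-0.33, 18 of 21 below 0). In brain the SF3 complexes followed with -0.26 (8 of 11), the hnRNP proteins with -0.22 (15 of 20), the DEAD-box helicases with -0.19 (25 of 35), the snRNP proteins with -0.11 (7 of 11) and the Prpf proteins with -0.10 (11 of 17). In spleen the medians were -0.23 for the SR proteins (8 of 10), -0.21 for the SF3 complexes (9 of 11), -0.18 for the DEAD-box helicases (23 of 35), -0.18 for the Prpf proteins (12 of 16) and -0.06 for the snRNP proteins (6 of 11). The U2AF genes were the exception, with both rows above 0 in brain (median 0.36) and in liver (0.29), 1 of 2 in spleen and both below 0 in thymus (-0.34). Family medians in liver and thymus otherwise lay between -0.11 and 0.07. Differences between families were not tested.

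**Figure D3:**
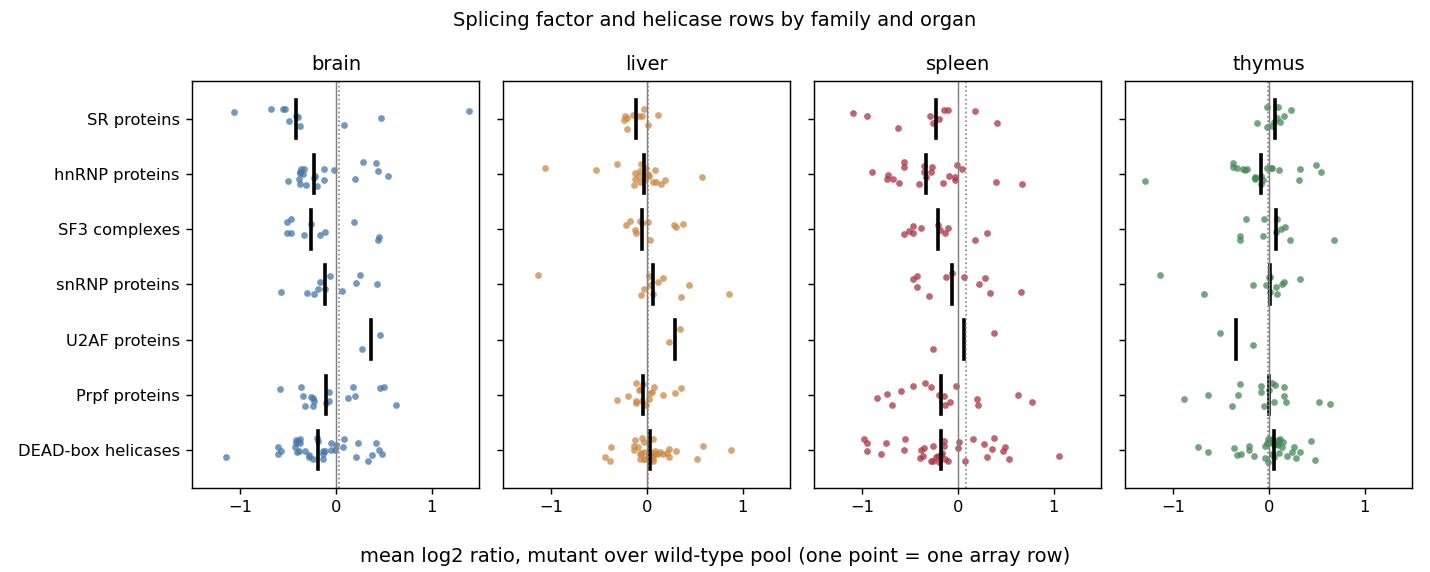
Mean log2 ratio of every tested member row (points) by family and organ, with the family median (black bar), 0 (grey line) and the median of all tested rows (dotted line). In brain and spleen the points of most families lie left of 0, with the SR protein median at -0.42 in brain and the hnRNP median at -0.33 in spleen.

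In all, 15 of 103 rows tested in both organs lay below 0 in all 4 mice of brain and also in all 4 of spleen. They are 14.6% of these members, and the share among all 18417 rows tested in both organs was 3.11%. Both shares include rows with 3 mice, which could not meet the condition. These 15 rows name 11 genes: the SR proteins Srsf2, Srsf3 and Srsf5, the hnRNP proteins Hnrnpa1, Hnrnpa2b1, Hnrnpc and Hnrnpu, the U2 snRNP component Sf3b2, the Sm protein Snrpd3, Prpf38b, a relative of the yeast splicing factor Prp38, and the helicase Ddx5. The same 15 rows had medians of -0.38 in brain and -0.56 in spleen, -0.05 in liver (from -0.23 to 0.06) and 0.05 in thymus (from -0.37 to 0.23). The low values in brain and spleen follow from how the rows were picked. By that choice each row also had to be below 0 in at least 1 dye orientation in both organs. On arrays with mutant Cy3 label all 15 were below 0 in both organs, with medians of -0.82 and -0.91. On arrays with mutant Cy5 label, 14 of 15 were below 0 in spleen (median -0.26) and 7 of 15 in brain (median 0.06). Snrpb2, the B'' protein of the U2 snRNP, was the sole member above 0 in all 4 mice of both organs.

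Promoter windows of the genes are shown because these members had low ratios together. All 11 genes matched RefSeq windows of the GRCm38.p6 build, which run from 250 bases before to 50 bases after a transcription start. Capitals mark matches on either strand to any of 7 motifs: the TATA box, the CCAAT box, the GC box, the sites of ETS factors, of YY1 and of RBPJ (the DNA-binding partner of Notch), and the cAMP response element, whose letters are given with their shares. Windows are given for the 3 genes with the lowest spleen ratios among those whose every row was below 0 in all mice of both organs, and for Ddx5 the most downstream of its 3 windows is shown.
Ddx5, chr11:106788445-106788744, minus strand: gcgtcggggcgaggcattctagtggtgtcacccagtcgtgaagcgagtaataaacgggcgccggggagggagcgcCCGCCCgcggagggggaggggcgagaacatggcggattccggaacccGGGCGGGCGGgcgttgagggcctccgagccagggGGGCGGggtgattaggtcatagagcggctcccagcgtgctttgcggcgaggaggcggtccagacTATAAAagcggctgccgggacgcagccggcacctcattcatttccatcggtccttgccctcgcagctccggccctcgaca
Srsf5, chr12:80945249-80945548, plus strand: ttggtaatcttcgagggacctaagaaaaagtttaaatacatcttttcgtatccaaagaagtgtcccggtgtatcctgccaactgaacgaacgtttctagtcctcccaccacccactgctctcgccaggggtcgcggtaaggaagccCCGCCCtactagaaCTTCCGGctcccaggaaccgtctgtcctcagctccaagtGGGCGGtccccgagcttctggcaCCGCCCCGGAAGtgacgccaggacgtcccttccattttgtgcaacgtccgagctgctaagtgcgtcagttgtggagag
Hnrnpa1, chr15:103240147-103240446, plus strand: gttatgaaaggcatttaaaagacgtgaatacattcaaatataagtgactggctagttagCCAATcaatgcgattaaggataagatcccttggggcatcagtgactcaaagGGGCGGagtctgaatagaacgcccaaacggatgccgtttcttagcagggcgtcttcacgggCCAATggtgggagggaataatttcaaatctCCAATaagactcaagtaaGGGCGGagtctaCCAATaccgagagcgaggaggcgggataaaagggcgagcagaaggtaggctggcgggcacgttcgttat
The Ddx5 window has a TATA box and GC boxes, some of them overlapping, the Srsf5 window has ETS sites and GC boxes, and the Hnrnpa1 window holds the CCAAT box in 4 places beside 2 GC boxes. Of the 15 windows of the 11 genes, some of which overlap, 11 held CCAAT (73.3%), belonging to 9 genes, compared with 44 of 85 windows of all members (51.8%) and 37.4% of all 32851 windows. The ETS site CCGGAAG occurred in 4 of the 15 and in 28 of the 85 member windows (32.9%), and in 8.86% of all windows. The GC box GGGCGG occurred in 7 of 15, in 47 of 85 (55.3%) and in 35.7% of all windows. The TATA box TATAAA was in 3 of 15, in 10 of 85 (11.8%) and in 13.6% of all. The YY1 site AAGATGGC was found in 1 of the 15 windows, in 3 of the 85 and in 2.75% of all. The RBPJ site GTGGGAA was in 0 of the 15, 3 of the 85 and 6.38% of all windows. The response element TGACGTCA was in 0 of the 15, 2 of the 85 and 1.79% of all. Of the 72 member genes 64 matched a window, and a match is a description of the letters only.

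Among SR proteins, Srsf5 had the lowest ratios in spleen. In Srsf5 row 1 the 4 spleen ratios were -0.80, -1.25, -0.75 and -0.98, a mean of -0.95 ± 0.23 as SD over 4 mice with a limma adjusted p of 0.414. In Srsf5 row 2 they were -2.40, -0.50, -0.30 and -1.22, a mean of -1.10 ± 0.95 as SD over 4 mice. All 8 values were below 0, and in row 2 mouse 1 was farthest down. In brain row 1 gave -0.04, -0.60, -0.45 and -0.86 and row 2 -0.35, -0.65, -0.49 and -0.62, again below 0 in every mouse, with means of -0.49 and -0.53. In liver the means were -0.21 and -0.05 and in thymus 0.12 and 0.03, with mice on both sides of 0 in each. By dye, the spleen mean of row 1 was -0.72 when Cy5 marked the mutant sample and -1.18 when Cy3 did, and that of row 2 in brain was 0.20 when Cy5 marked the mutant sample and -1.25 when Cy3 did.

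Srsf3, the smallest SR protein, which also takes part in mRNA export, had spleen ratios of -0.55, -0.61, -0.44 and -0.92 in row 1 (-0.63 ± 0.21 as SD over 4 mice, adjusted p = 0.414 by limma). Its row 2 was below 0 in mice 2 to 4 of spleen and at 3.32 in mouse 1, whose arrays stood apart. In brain both rows were below 0 in all 4 mice, with means of -0.38 and -0.42. Srsf2 was at -0.22, -0.40, -0.33 and -0.64 in brain and -0.01, -0.51, -0.09 and -0.57 in spleen, where mouse 1 was close to 0. Srsf4 had the lowest mean of the SR proteins in brain, with -1.20, -0.14, -0.70 and -2.21 (-1.06 ± 0.88 as SD over 4 mice, adjusted p = 0.42 by limma), the mice lying far apart, and was at -0.10 in spleen. Srsf6 was below 0 in all 4 brains (-0.55 ± 0.51 as SD over 4 mice) and at -0.15 in spleen.

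The rows of Srsf1, a founding member of the SR family, disagreed. In brain row 2 gave -0.35, -0.62, -0.31 and -1.43, below 0 in 4 of 4 mice, whereas row 1 gave -0.29, 2.20 and 2.26 in the 3 mice with a value. In spleen the means were 0.18 and -0.20 in 3 mice, and in liver and thymus they lay between -0.21 and 0.10. No direction can be given for Srsf1. Rows of the same gene pointed opposite ways for 10 of 26 member genes with several tested rows in brain, 13 of 26 in spleen, 15 of 26 in liver and 13 of 27 in thymus. All rows of a gene were below 0 for 14 genes in brain and 13 in spleen, and above 0 for 2 and 0.

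Hnrnpa1, an abundant hnRNP protein that acts at exonic and intronic silencers, had spleen ratios of -0.93, -1.35, -0.47 and -0.86 (-0.90 ± 0.36 as SD over 4 mice, adjusted p = 0.414 by limma). Its mean over the 4 organs was the lowest of its family. In brain it was at -0.14, -0.11, -0.35 and -0.67, in liver at a mean of 0.06, and in thymus at -0.95, -0.74, 0.13 and 0.08, so that the thymus mice fell into a low and a near-zero pair. The spleen mean was -0.55 when Cy5 marked the mutant sample and -1.26 when Cy3 did, while in brain it was 0.28 when Cy5 marked the mutant sample and -0.91 when Cy3 did. Its close relative Hnrnpa2b1 gave -0.81, -0.19, -0.11 and -1.14 in spleen and -0.15, -0.24, -0.35 and -0.79 in brain.

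Hnrnpu, which binds chromatin-associated RNA, was below 0 in all spleens in row 2 (-0.41 ± 0.25 as SD over 4 mice) and row 3 (-0.68 ± 0.54 as SD over 4 mice), and its row 1 was at -0.03 there. Hnrnpc, part of the particle that packages nascent transcripts, was at -0.37 in brain and -0.33 in spleen in row 2, below 0 in all 8 values. Hnrnpdl was below 0 in every measured brain and spleen, with -0.50 ± 0.23 as SD over 4 mice in brain and -0.56 ± 0.11 as SD over 3 mice in spleen. Hnrnpl and Hnrnpf row 2 were below 0 in all 4 spleens (-0.74 and -0.62). Hnrnpk had the opposite sign in spleen, at 1.13, 0.08 and 0.78 in 3 mice. Read as Cy5 over Cy3, the spleen means were 0.94 for Hnrnpl, 0.09 for Hnrnpf row 2 and -0.42 for Hnrnpk.

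Hnrnpll, which regulates splicing of the Ptprc (CD45) transcript in lymphocytes, was above 0 in all 4 brains in row 1 (0.12, 1.12, 0.52 and 0.41) and below 0 in all 4 in row 2 (-0.25, -0.53, -0.24 and -0.51), so its rows gave no direction. In liver the row with the smallest p below 0 was Hnrnpf row 1, at -0.01, -1.15, -0.74 and -0.21 (-0.53 ± 0.52 as SD over 4 mice, adjusted p = 0.921 by limma). Mouse 1 lay close to 0.

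In the U2 snRNP, Sf3b2, a subunit of SF3b next to the branch point, was below 0 in every mouse of both organs in its row 3, with -0.61, -0.46, -0.26 and -0.90 in spleen and -0.32, -0.10, -0.64 and -0.27 in brain. Its rows 1 and 2 were at -0.47 and -0.26 in brain and -0.14 and -0.51 in spleen, so all 3 rows had means below 0 in both organs. The brain mean of row 3 was -1.03 when Cy3 marked the mutant sample, and 0.7 when read as Cy5 over Cy3. The SF3a subunit Sf3a3 was below 0 in all 4 brains in row 2 (-0.27, -0.35, -0.84 and -0.58), while in spleen the same row ran from -0.67 in mouse 4 to 1.46 in mouse 1. Sf3a1 row 2 was below 0 in all 4 thymi, at -0.15, -0.32, -0.49 and -0.24, with mean -0.30 ± 0.14 as SD over 4 mice.

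Among Sm and snRNP proteins, Snrpd3 was below 0 in every spleen in both of its rows, with -0.44, -0.30, -0.42 and -0.57 in row 1 and a mean of -0.47 in row 2, and in row 1 in every brain (-0.17, -0.35, -0.40 and -1.34). Snrpb2 was above 0 in all 4 brains (0.23, 0.12, 0.31 and 0.34) and all 4 spleens (0.44, 0.15, 0.10 and 0.44). Its brain mean was -0.16 when Cy5 marked the mutant sample and 0.66 when Cy3 did. Snrpn, a brain-enriched Sm protein made from an imprinted gene, was the member with the smallest p in liver, at 1.08, 0.87, 1.27 and 0.22 (0.86 ± 0.46 as SD over 4 mice, adjusted p = 0.921 by limma), but its liver mean was 2.11 when Cy5 marked the mutant sample and -0.39 when Cy3 did. In thymus it was at -1.94, -1.34, 0.59 and -0.04. Snrpd1 was above 0 in all livers (0.36), Snrpa row 1, a U1 protein, was above 0 in all thymi (0.32), and Snrpb row 2, which lies among the uncertain names, was below 0 in all thymi (-2.97, -0.68, -0.72 and -0.20), with mouse 1 far below the others.

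Prpf38b was the lowest Prpf gene in spleen. Its row 2 gave -1.06, -0.80, -0.69 and -0.85 (-0.85 ± 0.15 as SD over 4 mice, adjusted p = 0.414 by limma), and rows 1 and 3 were also below 0 in all 4 spleens, at -0.69 and -0.47. In brain rows 1 and 2 were below 0 in every mouse (-0.24 and -0.36) and row 3 in 2 of 4. Prpf31, a protein of the spliceosomal tri-snRNP linked to retinitis pigmentosa, had in row 2 the smallest p above 0 in brain, at 0.85, 0.38, 0.60 and 0.69 (0.63 ± 0.20 as SD over 4 mice), with row 1 at 0.20 and row 3 at 0.13. Prpf40b, a U1-associated factor, was above 0 in all 4 thymi (0.33, 1.13, 0.18 and 0.45) and in the 3 spleens measured. Prpf8, the core scaffold of the catalytic centre, was at -0.74 in 3 spleens.

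Ddx5, a nuclear helicase with roles in splicing, transcription and microRNA processing, had 3 rows that were all below 0 in every brain and every spleen. In spleen row 1 gave -0.60, -0.50, -0.36 and -0.80, row 2 -0.92, -0.93, -0.86 and -1.11 and row 3 -0.57, -0.21, -0.18 and -1.23. Row 2 had the smallest p of all members in any organ (-0.95 ± 0.11 as SD over 4 mice, adjusted p = 0.414 by limma), and its spleen mean was -0.83 when Cy5 marked the mutant sample and -1.08 when Cy3 did. In brain the rows gave -0.31, -0.39, -0.61 and -0.37, then -0.07, -0.36, -0.42 and -0.75, and -0.52, -0.49, -0.77 and -0.67. In liver the means were 0.06, -0.13 and -0.12, and in thymus 0.11, 0.05 and 0.12. The brain mean of row 1 was 0.13 when Cy5 marked the mutant sample and -0.96 when Cy3 did.

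Ddx17, the paralogue of Ddx5, took different signs between organs. Its row 2 gave -0.21, -0.92, -0.75 and -0.52 in brain, 0.20, 1.66, 0.16 and 0.34 in liver and 0.34, 0.83, 0.52 and 0.23 in thymus, below 0 in every brain and above 0 in every liver and thymus, and both dye orientations had the same sign in each of these organs. Row 1 was at -0.24 in brain, -0.05 in liver and 0.14 in thymus, with mice on both sides of 0 in each, and at -0.98 in 3 spleens. Brain minus thymus for row 2 was -1.08 (SE 0.25, adjusted p = 0.457 by limma over 18889 rows), and brain minus liver -1.19 (SE 0.36, adjusted p = 0.579).

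Ddx6, a helicase of mRNA decapping and translational repression, had 4 rows, 2 of them among the uncertain names, and the rows did not share a sign. In brain row 1 gave -0.49, -0.29, -0.15 and -3.65 and row 2 -0.47, -0.53, -0.77 and 0.02, while rows 3 and 4 had means of -0.20 and 0.23. In spleen the means of the 4 rows were 0.07, 0.38, -0.10 and -0.21, in liver -0.14, 0.17, -0.03 and -0.39, and in thymus 0.01, 0.00, 0.11 and -0.74. Row 2 was above 0 in the 3 spleens measured and row 1 below 0 in all 4 brains, and elsewhere every row had mice on both sides of 0.

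Of the other helicases, Ddx21, a nucleolar helicase of ribosomal RNA processing, had spleen ratios of -0.84, -0.65, -0.64 and -0.86 in row 2 (-0.75 ± 0.12 as SD over 4 mice, adjusted p = 0.414 by limma) and was -0.55 when Cy5 marked the mutant sample and -0.95 when Cy3 did, while its rows 1 and 3 were at -0.17 and -0.26. Ddx3x, an X-linked helicase of translation initiation, was at -0.42, -0.38, -0.35 and -0.46 in spleen, with an SD of 0.04. Ddx24 was below 0 in 3 of 3 spleens (-0.95) and all 4 brains (-0.39), and Ddx56 row 1 in all 4 spleens (-0.80), with Ddx56 row 2 at 0.36. Ddx1, a helicase of the tRNA ligase complex, was below 0 in all 4 brains in both rows, with a mean of -0.38 in row 1 and values of -0.57, -0.48, -0.25 and -0.99 in row 2, whose mean was 0.05 when Cy5 marked the mutant sample and -1.19 when Cy3 did.

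Helicase rows above the pool were the minority in brain (10 of 35) and spleen (12 of 35), but not in liver (20 of 35) or thymus (22 of 35). Ddx28, which acts in assembly of the mitochondrial ribosome, was above 0 in all 4 spleens (2.65, 1.16, 0.19 and 0.23) and below 0 in all 4 thymi (-0.12, -0.81, -0.19 and -0.20). In spleen mice 1 and 2 were far above the others, and the mean of 1.06 was 0.22 when Cy5 marked the mutant sample and 1.90 when Cy3 did. Ddx27 was above 0 in all spleens (0.49), and Ddx20, a protein of the SMN complex that assembles snRNPs, in all livers (0.30) but below 0 in all spleens (-0.35). Read as Cy5 over Cy3, Ddx20 was below 0 in both organs, with means of -0.42 in liver and -0.61 in spleen. Ddx11, a DNA helicase of sister chromatid cohesion, was above 0 in all thymi (0.05, 0.75, 0.10 and 0.12), with mouse 2, the mouse with 1 thymus array, apart from the rest. Ddx39a, an mRNA export helicase, had in row 1 the highest mean over the 4 organs among helicases with all values, with spleen ratios of 1.00, 0.89, 0.66 and -0.65, but its row 2 was at -0.39 in 3 spleens. Ddx4, the germ-cell helicase Vasa, had no organ with values in 3 mice and was not tested.

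**Figure D4:**
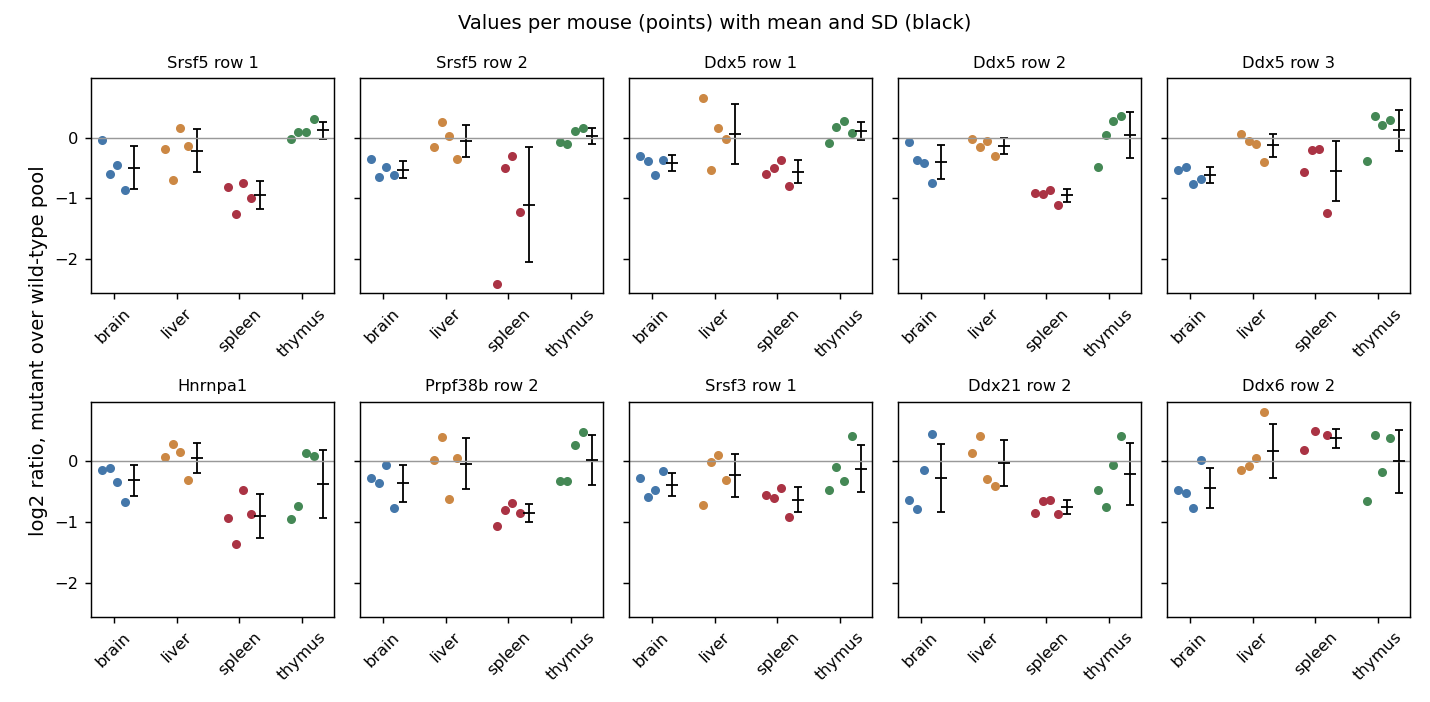
Log2 ratio (mutant over wild-type pool) per mouse for 10 rows in the 4 organs, with mean and SD. The Srsf5 and Ddx5 rows, Hnrnpa1, Prpf38b row 2 and Srsf3 row 1 lie below 0 in every brain and spleen mouse, Ddx21 row 2 does so in spleen, Ddx6 row 2 lies above 0 in the 3 spleens measured, and the liver and thymus points of most rows lie on both sides of 0.

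Differences between organs were tested for the 6 pairs without a mouse term, although the same mice gave every organ. The standard errors, p-values and counts given here therefore ignore the pairing. With the mouse as block, the limma adjusted p of Srsf5 row 1 for spleen minus thymus was 0.589 in place of 0.428. No row had an adjusted p under 0.05 in any pair (0% of 18417 to 19725 rows), and the smallest adjusted p of a member was 0.428, for spleen minus thymus. The median difference of the members was 0.226 for liver minus spleen (all rows -0.049), -0.228 for brain minus liver (0.005), -0.213 for brain minus thymus (0.06), -0.185 for spleen minus thymus (0.102), 0.141 for brain minus spleen (-0.018) and -0.027 for liver minus thymus (0.034). At an unadjusted p under 0.05, 19 of 104 members were higher and 1 lower in liver than in spleen, beside 4.31% and 3.99% of all rows. In spleen 14 of 105 were lower and 4 higher than in thymus (4.27% and 5.5%), and in brain 10 of 105 were lower and 5 higher than in thymus (3.65% and 7.03%). The counts were 5 lower and 1 higher of 106 for brain minus liver (3.15% and 5.43%), 2 lower and 1 higher of 103 for brain minus spleen (2.92% and 3.15%), and 0 lower and 2 higher of 106 for liver minus thymus (1.28% and 2.9%). These pairs share organs and are not independent of each other.

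The 2 members with the smallest p in each pair mostly belonged to genes described above. Spleen minus thymus was -1.06 on the log2 scale for Srsf5 row 1 (SE 0.21, adjusted p = 0.428 by limma), and for Ddx5 row 2 it was -1.01 (SE 0.24). Between liver and spleen the differences were 0.82 for Ddx5 row 2 (SE 0.21) and 0.96 for Hnrnpa1 (SE 0.26), with adjusted p = 0.569 by limma for both. Liver minus thymus was 1.52 (SE 0.47) for Ddx47, a helicase of ribosomal RNA processing, and 1.54 (SE 0.51) for Snrpn (limma adjusted p = 0.911 for both), with the mean ratio of Ddx47 at 0.88 in liver and -0.64 in thymus. Between brain and spleen, Ddx6 row 2 differed by -0.81 (SE 0.3) and Hnrnpc row 3 by 0.7 (SE 0.29).

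A list of 110 other splicing and mRNA processing genes, none with the prefixes above, was drawn from textbook knowledge. It was chosen with earlier results of these data known, and 80 of its genes were named in the table. In brain 71 of 119 rows were below 0 with a median of -0.08, in spleen 74 of 121 with -0.06, in liver 53 of 122 with 0.03 and in thymus 57 of 125 with 0.02. None had an adjusted p under 0.05 by limma. At an unadjusted p under 0.05, 11 of 119 were lower and 6 higher in brain, where 4.44% and 7.25% of all rows were, and 10 of 121 lower and 0 higher in spleen, beside 5.1% and 5.57%. In liver 1 of 122 was lower and 2 higher (all rows 1.79% and 2.7%), and in thymus 3 of 125 were lower and 1 higher (2.44% and 0.684%). The spleen rows included 2 of 3 rows of Pabpc1, the cytoplasmic poly(A)-binding protein (-1.02 ± 0.32 and -0.91 ± 0.42, SD, n = 4), and single rows of Son, a nuclear speckle protein (-1.31 ± 0.69), Pcbp2 (-0.7 ± 0.19), Tial1 (-0.66 ± 0.13) and Ewsr1 (-0.62 ± 0.23), RNA-binding proteins. The other spleen rows of these genes were at -0.41 for Pabpc1, 0.05 for Son, -0.48 for Pcbp2 and -0.07 for Tial1. In brain they included 1 row of Nono (-0.7 ± 0.18, the other row -0.33), both rows of the neuronal splicing regulator Rbfox1 (-0.62 ± 0.13 and -0.54 ± 0.11) and, above 0, 2 of 3 rows of Gemin4 of the SMN complex (0.8 ± 0.23 and 0.77 ± 0.26, the other 0.31). All those given with an SD had the same sign in 4 of 4 mice.

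Lists of cell type markers also lay away from 0 in brain and spleen, and no marker row had an adjusted p under 0.05 by limma. For comparison, 46.6% of all tested rows were below 0 in brain, 40.7% in spleen and 51.3% in thymus. In spleen all 7 tested rows of 5 B cell genes were below 0, with a median of -0.91 (from -1.13 to -0.69 by mouse), 7 of 8 macrophage and monocyte rows were below 0 (list median -0.47, from -1.15 to -0.25), and 9 of 10 blood and erythroid rows were below 0 (median -0.52, from -1.06 to 0.06), while 16 T cell rows had a median of 0.02. Exocrine pancreas genes, which a spleen can carry from the neighbouring organ, were below 0 in 4 of 4 rows (median -0.66, from -1.17 to 0.54 by mouse). In brain 7 of 10 blood and erythroid rows were below 0 (median -0.6, from -1.14 to -0.24 by mouse), as were 13 of 15 astrocyte rows (-0.41, from -0.49 to -0.29), 13 of 19 neuronal rows (-0.25, from -0.42 to -0.09) and 6 of 9 oligodendrocyte rows (-0.16, from -0.43 to 0.05). Other lists lay above 0. In brain these were B cell genes (5 of 5 rows above 0, median 0.48) and exocrine pancreas genes (3 of 3, median 0.6). Each of the 3 pancreas rows had an unadjusted p under 0.05 by limma, and 7.25% of all brain rows were higher at that threshold. In spleen they were neuronal genes (12 of 16, median 0.22, from 0.05 to 0.86 by mouse) and adipocyte genes (5 of 5, median 0.15). In brain T cell genes had a median of 0.09 (16 rows), macrophage and monocyte genes -0.19 (8 rows), hepatocyte genes 0.11 (9 rows) and adipocyte genes -0.07 (5 rows). In spleen the medians were -0.09 for astrocyte genes (15 rows), 0.21 for oligodendrocyte genes (9 rows) and 0.06 for hepatocyte genes (9 rows). In liver, hepatocyte genes had a median of -0.05 (9 rows), and in thymus T cell genes had 0.01 (17 rows) and B cell genes -0.18, with 8 of 8 rows below 0. Fewer cells of a type and less RNA per cell cannot be told apart in these organs, and the part of cell composition in the ratios of the splicing genes was not tested.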

How the data were processed

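Per the labels, total RNA of each mutant mouse and of a wild-type pool was labelled with Cy5 and Cy3 and hybridised to cDNA arrays, and per the study's methods these were scanned with GenePix software and processed in the TM4 suite. The deposited values are log2 ratios made by the authors. Their normalization, direction and treatment of weak spots are not given in the sources used here. Names were taken from the platform's probe list with a displacement of 11 rows, and values beyond 12 in size were dropped. The 2 arrays of a mouse and organ were averaged as deposited, with no sign turned. Every deposited ratio was thus read as mutant over pool in both dye orientations. Only the Cy5-over-Cy3 reading turned the sign of the arrays with mutant RNA in Cy3.

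Each row with at least 3 mice was tested against 0 with limma 3.58.1 in R 4.3.3. Organs were compared on the same means without a mouse term, and Benjamini-Hochberg adjustment ran over all rows. The scripts were tested on simulated data. The pool is 1 control sample, so its own spread is left out, and the number of arrays limits the precision. Mice were the same animals in each organ, so the mouse pairs the samples. Their deviations correlated between -0.08 and 0.0764 across organs. No row of an organ pair had an adjusted p under 0.05 by limma with or without the mouse as block, so there was no call to change.

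The members and gene lists were chosen with earlier results of these data known. Rows are named where they had the smallest p with 1 sign in all 4 mice of an organ (6 below and 4 above 0), the lowest or highest mean of a family over the organs, or 1 sign in all mice of 2 organs. Srsf1, Srsf5, Ddx5, Ddx6 and the leading 2 rows of each organ pair are also named. Srsf6, Hnrnpdl, Hnrnpl, Hnrnpk, Prpf8, Ddx24, Ddx56, the further rows of named genes and the genes named from the other lists were chosen after their values were seen. Alternatives were leaving out each mouse, centring or scaling the arrays, other filters, a dye term, a spread shared by the organs, robust or no moderation, each dye orientation, the Cy5-over-Cy3 reading, names as listed and means per gene. The counts at an unadjusted p without spleen mouse 1 and brain mouse 4 were chosen after seeing the data. 0 columns were left out for lack of a sample.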

Additional observations from a re-analysis of the deposited data

Results flagged for a closer look

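In 5 of 91 groups of 4 mice, for the rows named in the report, 1 mouse lay far from the other 3, by a gap that passed Dixon's critical value. Chance gives about 1 such group in 20. Ddx6 row 1 was at -3.65 in brain mouse 4, while the others lay between -0.49 and -0.15, and at 0.7 in spleen mouse 1, with the others between -0.19 and -0.07. Ddx17 row 2 was at 1.66 in liver mouse 2 and between 0.16 and 0.34 in the others. In thymus mouse 2, which had 1 array and a dye correction, Ddx11 was at 0.75 (others from 0.05 to 0.12) and Ddx28 at -0.81 (others from -0.2 to -0.12). Brain mouse 4 and spleen mouse 1 are the mice with the most missing values of their organs.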

How the results depend on the processing

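The share of members below 0 in brain and spleen, their median and the absence of calls kept their direction and side of the threshold when arrays were centred or scaled, under other filters and with a dye term. Centring moved the brain median to -0.266 and means per gene to -0.13. The dye term largely repeats the averaging of dye-swapped arrays. Robust moderation cannot move a share or a median, and with it 0 members passed. Leaving out each mouse gave brain shares from 71.0 to 75% and medians from -0.254 to -0.194, spleen shares from 70.3 to 76.7% and medians from -0.285 to -0.223, liver shares from 47.5 to 53.3% and medians from -0.036 to 0.011, and thymus shares from 32.4 to 60.4% and medians from -0.056 to 0.113, with 0 members past an adjusted p of 0.05 by limma. The dye settings turned the direction. Read as Cy5 over Cy3, 28.0% of members were below 0 in brain (median 0.244) and 27.4% in spleen (0.171). Arrays with Cy5 on the mutant sample alone gave 43.5% and a median of 0.055 in brain, and 48.1% and 0.038 in spleen. Arrays with Cy3 on the mutant sample alone gave medians of -0.356 and -0.325. On them 9 of 111 brain members passed the threshold, as did 1433 of all rows. At least 19321 rows were tested there, so the shares of members and of all rows lay close together. Names as listed gave 40.0% and 0.096 in brain and 43.9% and 0.038 in spleen. With a spread shared by the 4 organs, 5 of 106 spleen members passed (Srsf5 rows 1 and 2, Ddx5 row 2, Prpf38b row 2 and Hnrnpa1, adjusted p from 0.02 to 0.047 by limma), beside 175 of all 19591 rows. With the mouse as replicate block, 0 members passed in each of the 6 organ pairs, as without it, so there was no call for the block to change. Of 91 values of named rows, the Cy5-over-Cy3 reading changed the sign of 59, the Cy5 orientation of 19 and the Cy3 orientation of 16. The cause of these changes was not tested.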
